A study of Mus musculus with 8 samples.

Results

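The 35 genes described here are growth and nucleolar genes classed as targets of the transcription factor Myc, 35 of 21883 protein-coding genes placed on the mouse genome. They were chosen by name, and their data are the ATAC-seq peaks that overlapped each gene body or the 10 kb on either side of it. ATAC-seq marks open chromatin by the insertion of sequencing adapters with a transposase. Merging the peaks of 4 libraries gave 253 regions in the 35 windows, of 180321 regions in the genome.

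The libraries came from DN3 thymocytes of C57BL/6 mice, the double-negative stage at which T-cell precursors rearrange and test the T-cell receptor beta chain. Both groups of 2 libraries were from this stage, one wild type at the Notch-Myc enhancer (N-Me), a distal element through which Notch activates Myc, and the other homozygous mutant at its GATA sites 1 and 2. The labels name no other allele and no treatment, and give neither age nor sex. They do not say whether replicates were separate animals, so the p-values given here reflect no more than the spread among libraries, which may be technical. The 4 leukaemia samples of the series were not analysed here.

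Myc binds DNA as a dimer with Max, preferably at the E-box CACGTG, and raises the transcription of genes for ribosome production, nucleotide and polyamine synthesis, glycolysis and nutrient uptake. Ribosomes are assembled in the nucleolus, where RNA polymerase I makes ribosomal RNA, small nucleolar ribonucleoproteins modify it, and assembly factors fold and cut it. DN3 cells that pass selection of the receptor chain grow and divide quickly, and Myc is known to be needed for that growth. The comparison asks whether chromatin at these genes differed between cells with an intact and a mutated enhancer site, far from the genes themselves.

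Promoter sequences were available for 29 of the 35 genes, in 43 promoters. Those of 5 genes held the E-box CACGTG within 250 bases before a RefSeq start, and they are shown because they carry the site that Myc and Max prefer. Each runs 5′ to 3′ on the strand of its gene from base -250 to base -1 (RefSeq, GRCm38.p6), and capitals mark CACGTG.
Nop2, chr6:125131633-125131882, plus strand: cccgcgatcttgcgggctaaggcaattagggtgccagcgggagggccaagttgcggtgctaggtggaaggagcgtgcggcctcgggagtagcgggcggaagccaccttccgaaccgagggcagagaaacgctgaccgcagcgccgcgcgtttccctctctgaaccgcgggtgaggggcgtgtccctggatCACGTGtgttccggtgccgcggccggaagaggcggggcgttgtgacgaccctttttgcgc
Nme1, chr11:93968273-93968522, minus strand: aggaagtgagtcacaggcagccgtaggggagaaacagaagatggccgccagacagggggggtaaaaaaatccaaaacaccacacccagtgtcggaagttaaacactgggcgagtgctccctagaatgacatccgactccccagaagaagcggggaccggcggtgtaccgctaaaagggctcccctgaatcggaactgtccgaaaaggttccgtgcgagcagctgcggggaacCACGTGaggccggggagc
Eif4a1, chr11:69672424-69672673, minus strand: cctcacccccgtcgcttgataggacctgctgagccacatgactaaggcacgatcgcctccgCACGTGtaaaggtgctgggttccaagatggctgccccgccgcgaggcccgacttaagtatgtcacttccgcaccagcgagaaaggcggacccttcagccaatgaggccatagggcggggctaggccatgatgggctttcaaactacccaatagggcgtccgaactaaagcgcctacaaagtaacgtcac
Ldha, chr7:46845554-46845803, plus strand: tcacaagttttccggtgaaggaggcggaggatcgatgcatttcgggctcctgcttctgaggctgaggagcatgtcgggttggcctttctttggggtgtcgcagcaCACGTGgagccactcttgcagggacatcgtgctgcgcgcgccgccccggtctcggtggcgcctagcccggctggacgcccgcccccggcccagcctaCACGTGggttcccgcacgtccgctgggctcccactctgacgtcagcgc
Eif4e, chr3:138527018-138527267, plus strand: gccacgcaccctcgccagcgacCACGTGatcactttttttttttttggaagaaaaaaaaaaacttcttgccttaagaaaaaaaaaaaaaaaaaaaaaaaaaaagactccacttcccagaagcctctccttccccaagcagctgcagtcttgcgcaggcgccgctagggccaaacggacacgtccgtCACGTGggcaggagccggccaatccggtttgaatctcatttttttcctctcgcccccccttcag

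The E-box was present in 6 of the 43 member promoters (13.95%) and in 6.63% of 21262 promoters of all genes, searched over the same 250 bases on both strands. Counted by gene, 5 of 29 had the E-box, against 7.61% of 17491 genes. Nop2 had it 60 bases before its start, Nme1 18 bases and Eif4a1 189 bases. Ldha had a pair at 145 and 48 bases, and Eif4e a pair at 228 and 64 bases before the second of its annotated starts. The sixth promoter was that of a second Nme1 start, inside the first transcript. All 8 E-box sites lay within a peak in each of the 4 lists, so these letters were in open chromatin in both genotypes.

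Other short motifs were counted in the same windows. The related E-box CACGCG was present in 9 member promoters, from 7 genes (Eif4e, Ldha, Nolc1, Odc1, Pes1, Tfrc and Ubtf), against 9.99% of all promoters. The GC box GGGCGG, which Sp1 binds, stood in 27 (62.8%), against 42.6% of all, and the CCAAT box in 11 (25.6%), against 35.4%. Genes with several starts count more than once in these shares. Counted by gene, the GC box was in 22 of 29, against 45.8% of all genes, and the CCAAT box in 10 of 29, against 39.5%. The GATA motif AGATAA was in 0 of 43 and TGATAA in 2, those of Pkm and Ubtf, against 8.81% and 6.94% of all promoters. A match is a description of letters and not a site of binding. The median GC content was 58.8% in member promoters and 55.6% in all promoters. The median number of CG steps (C followed by G), which both E-boxes contain, was 16 and 10. The bearing of this composition on the motif counts was not tested.

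TATAAA, the letters of a TATA box, occurred in 2 member promoters, against 11.6% of all. They belong to Pes1, 216 bases before its start, and to Dkc1, 189 bases before its start. Both genes were singled out after their start ranks were seen, which were higher in mutant at Pes1 and lower at Dkc1. A link of these ranks with the letters was not tested. Both promoters are shown in the same way, with capitals for TATAAA, which lies on the other strand in Dkc1. Capitals also mark the related E-box of Pes1, which lies on the other strand.
Pes1, chr11:3963725-3963974, plus strand: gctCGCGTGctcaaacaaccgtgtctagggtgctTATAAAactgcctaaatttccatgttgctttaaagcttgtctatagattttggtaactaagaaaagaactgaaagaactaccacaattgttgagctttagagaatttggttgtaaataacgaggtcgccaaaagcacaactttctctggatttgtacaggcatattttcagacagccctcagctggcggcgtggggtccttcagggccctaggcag
Dkc1, chrX:75095604-75095853, plus strand: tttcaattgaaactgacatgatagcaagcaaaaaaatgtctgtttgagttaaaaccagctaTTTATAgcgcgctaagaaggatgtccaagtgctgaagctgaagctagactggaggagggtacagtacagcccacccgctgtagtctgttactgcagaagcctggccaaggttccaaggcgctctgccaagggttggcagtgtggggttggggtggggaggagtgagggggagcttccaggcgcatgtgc

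Read counts are not part of peak lists. Sequencing depth is therefore unknown here, and where a list had no peak, none was detectable at the depth of its library. Values are given in the order wild type 1, wild type 2, mutant 1, mutant 2 throughout. The lists held 169255, 156372, 121022 and 119023 peaks and covered 69.3 to 72.3 Mb. The mutant lists joined neighbouring peaks over longer gaps (293 and 349 bp at least, against 257 and 261 bp) and had longer shortest peaks (73 and 87 bp, against 64 and 65 bp). Peak numbers and peak widths move with these settings, and their part in the results was not tested beyond the alternatives given. As a check of the labelled cell type, the starts of 7 of 7 DN3 markers (Ptcra, Il2ra, Cd3e, Notch1, Rag1, Tcf7 and Bcl11b) had a peak in every list. B-cell markers had a start peak for 3, 4, 3 and 3 of 5, myeloid for 4, 4, 2 and 2 of 5, erythroid for 3, 3, 2 and 2 of 5, and thymic stroma for 3, 2, 2 and 2 of 5. No list had a start peak at Ms4a1, Elane, Gata1, Hba-a1, Psmb11 or Krt5, while Mpo, Csf1r and Slc4a1 had one in the wild-type lists alone. Markers of other cell types with a start peak in every list were Cd79a, Pax5, Ebf1, Itgam, Lyz2, Klf1, Epor, Epcam and Krt8. Of all protein-coding genes 66.8% had a start peak in all 4 lists, so such peaks say little about cell identity.

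Every one of the 35 genes was open at its start in both genotypes. A peak lay within 1 kb of a start in all 4 lists for 35 of 35 genes, where 66.8% of all 21883 protein-coding genes had one. For 6 genes (Fbl, Npm1, Bop1, Rrs1, Srm and Slc7a5) either annotated end of the gene stood in for the start, since the tables used give them no strand. The stronger end was taken, which for Fbl and Bop1 is a peak over the start of a neighbour, Dyrk1b and Hsf1, so the values of these genes cannot be told apart. In the other 29 genes, the peak covered a start base itself in all 4 lists for 29. The windows held 247, 227, 168 and 167 peaks, a mean of 237 ± 14.1 in wild type and 167.5 ± 0.707 in mutant (SD, n = 2), 1.41 times as many in wild type (exact two-sided permutation test p = 0.333). With 2 against 2 libraries no smaller p is possible. The whole lists differed by nearly the same factor, 1.36, and per 1000 peaks of its list each library had 1.46, 1.45, 1.39 and 1.40 peaks in these windows.

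The length of open chromatin differed less than the number of peaks. Peaks covered 134449, 126217, 128357 and 124000 bp of the windows, which is 9.88%, 9.27%, 9.43% and 9.11% of their length. The ranges of the genotypes overlapped, with means of 130333 ± 5821 bp and 126178 ± 3081 bp (SD, n = 2; exact permutation p = 0.667). The sign of this difference was not stable: wild type minus mutant was -4577 bp when all lists were trimmed to equal numbers of peaks, and -1971 bp within the gene bodies alone. Leaving out wild type 1 brought the difference from 4154.5 to 38.5 bp.

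Of the 253 regions, 152 (60.1%) were called in all 4 lists, against 57.8% of 132917 regions in the windows of all protein-coding genes. Another 37 were called in both wild-type lists and in no mutant list, 18.4% of the 201 regions of both wild-type lists (95% Clopper-Pearson interval 13.3 to 24.5%, counting error only). The same share was 14.5% in the windows of all protein-coding genes and 15% over all regions of the genome, both within the interval of the 35 genes. In the mirror direction, 0 of the 153 regions of both mutant lists were missing from both wild-type lists, which allows a share of up to 1.96%, against 1.67% in all gene windows and 1.75% genome-wide. A further 46 were called in 1 list only, of which 29 were in wild type 1, 12 in both wild-type lists and 1 mutant list, 5 in 1 list of each genotype, and 1 in both mutant lists and 1 wild-type list. Without wild type 2 the rule asked for a call in only 1 wild-type list, and the first of these shares was then 28.1%.

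The 37 regions of wild type alone were small and weak. Their median width was 193 bp (80 to 834 bp), against 788.5 bp for the regions of all 4 lists. Their lower fold enrichment of the 2 wild-type lists had a median of 2.01 (1.38 to 4.40), against a median lowest fold of 3.90 in the regions of all 4 lists. Fold enrichment is the authors' ratio of pileup to local background averaged over a peak, and it ranks peaks within a list. Such regions were found at 22 of the 35 genes, where 52.3% of the 14624 protein-coding genes with a start peak in all 4 lists had at least 1, and the mirror kind at 0 genes, against 7.54%. None of the 37 lay within 1 kb of a known member start.

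**Figure D1:**
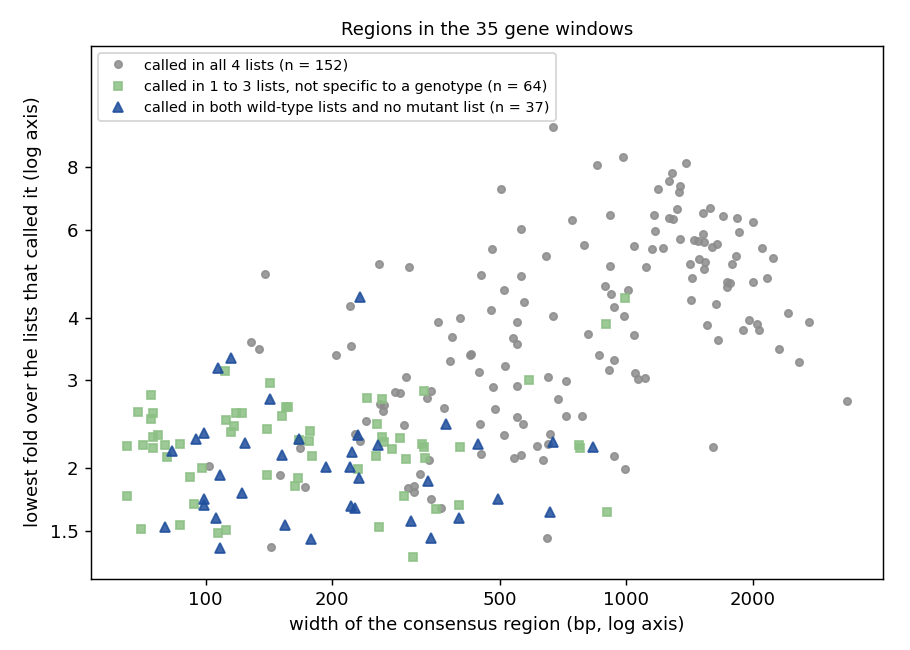
Width of each of the 253 regions (bp, log axis) against the lowest fold enrichment among the lists that called it (log axis), 1 point per region. Regions of both wild-type lists alone (triangles, n = 37) sit among the narrow, low-fold regions, with a median of 193 bp, and regions of all 4 lists (circles, n = 152) reach the widest and strongest values.

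Of these 37 regions, 26 lay outside the gene and 11 inside it. Among regions that overlapped a gene body, start and end regions included, 11 of 100 regions of both wild-type lists were called in wild type alone, against 13.8% for the gene bodies of all protein-coding genes. Among those outside the gene body the count was 26 of 101, against 14.5% in the 10 kb flanks of all genes. At 11 of the 37 a mutant peak stood within 1 kb, and the median distance to the nearest one was 1725 bp. When all lists were trimmed to equal numbers of peaks, 11 of the 37 were still called in wild type alone. Under a common minimum length and joining gap 27 were, and when a call needed 50% of the region to be covered, 32 were. With a −log10 q of at least 5 it was 4 (at Polr1a, Wdr43, Nop58 and Hk2), and with a fold of at least 4 it was 1 (at Polr1a). The 8 that stood under the first 3 settings lay 1 each at Polr1a, Wdr43, Hk2, Fbl, Gar1 and Eif4a1 and 2 at Slc7a5.

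Gene by gene, more peaks in both wild-type lists than in either mutant list were counted at 24 of the 35 genes. The background, the same share over the 14624 genes with a start peak in all 4 lists, was 56.3%. More in both mutant lists were counted at 0 genes (background 0.732%), and the other 11 overlapped. Covered length went both ways. It was longer in both wild-type lists at 12 genes, where 28.7% of genes with a start peak in all 4 lists were, and longer in both mutant lists at 9 genes, where 32.4% were. The 12 were Nop56, Nop58, Gar1, Bop1, Pes1, Ubtf, Srm, Pkm, Hk2, Eif4a1, Tert and Slc7a5. The 9 were Dkc1, Npm1, Nolc1, Wdr12, Rrp9, Polr1b, Polr1e, Cad and Eif4e. Leaving out a library relaxes this rule, so both counts can then only stay or rise, and they do not measure dependence on that library.

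**Figure D2:**
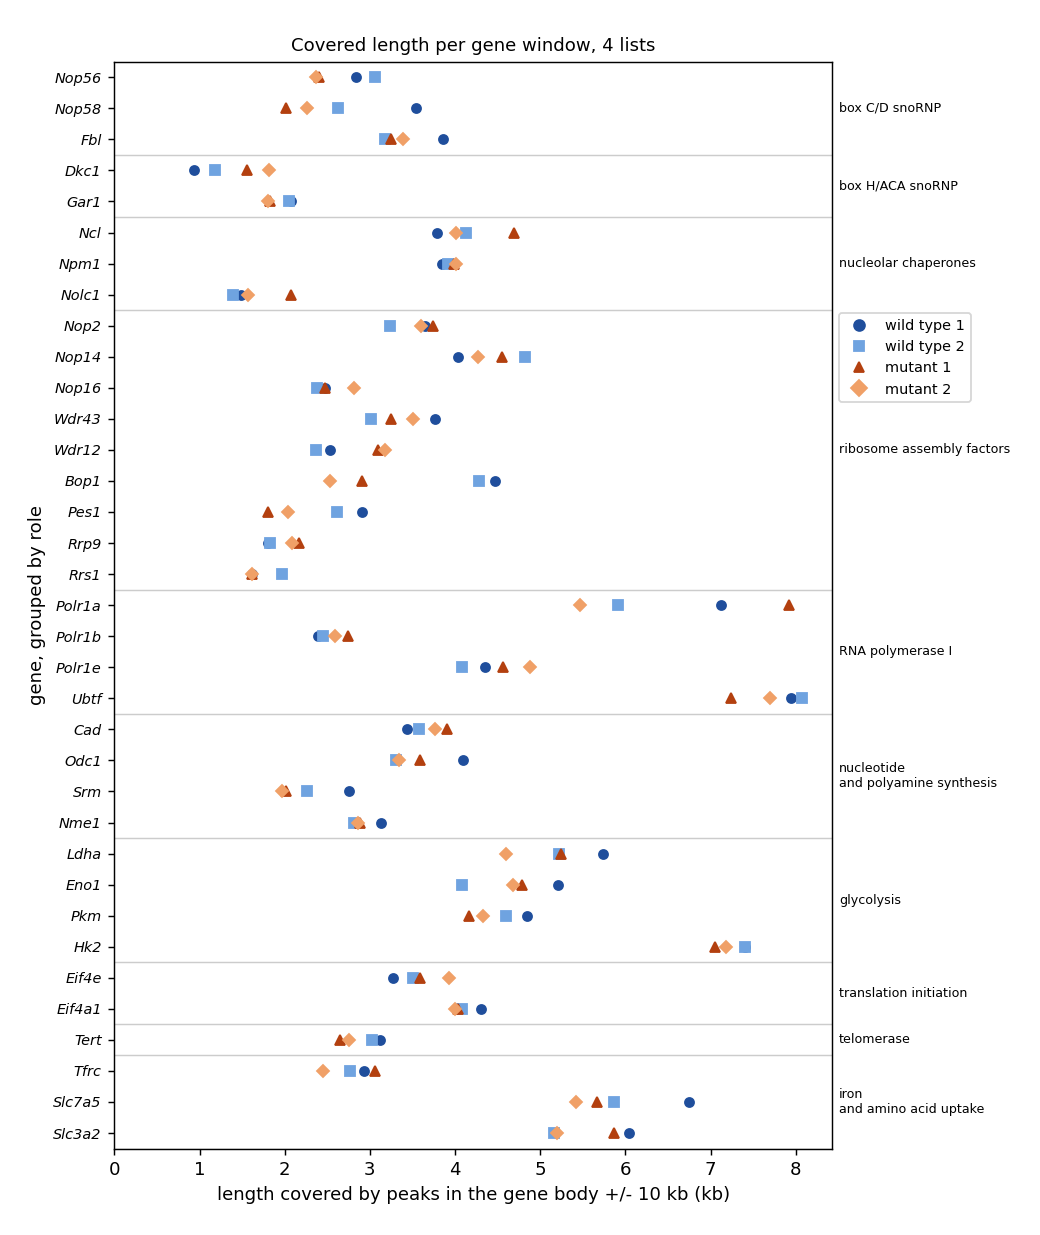
Length covered by peaks in the window of each of the 35 genes (kb), 1 symbol per library, genes grouped by role. Bop1 had 4468 and 4282 bp in wild type against 2907 and 2530 bp in mutant, and Dkc1 933 and 1179 bp against 1556 and 1820 bp, while 14 genes overlapped between the genotypes.

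The strength of the start peaks was compared by rank within each list. The strongest peak within 1 kb of a start was taken for each gene, and its fold enrichment was turned into a percentile among the same 14624 genes. Members stood near the middle of this scale, with medians of 49.95, 54.6, 53.2 and 54.9. Their start peaks were wider than those of all genes, with medians of 1274, 1308, 1521 and 1417 bp against 1098, 1108, 1256.5 and 1214.5 bp. The start peak was wider in both mutant lists at 23 members (background 52.1%) and wider in both wild-type lists at 2, Nop58 and Srm (background 12.8%). The percentile was higher in both mutant lists at 19 members (background 39.5%) and in both wild-type lists at 10 (background 28.7%), with Fbl and Bop1 among the 19. The fold is an average over the peak, and how far joining bears on it was not tested. The 8 members whose 4 start peaks differed by at most 10% in width were also counted alone. Of these, 6 ranked higher in both mutant lists, Bop1 among them (background 65.2% of 4147 genes of like width) and 0 in both wild-type lists (background 9.36%).

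**Figure D3:**
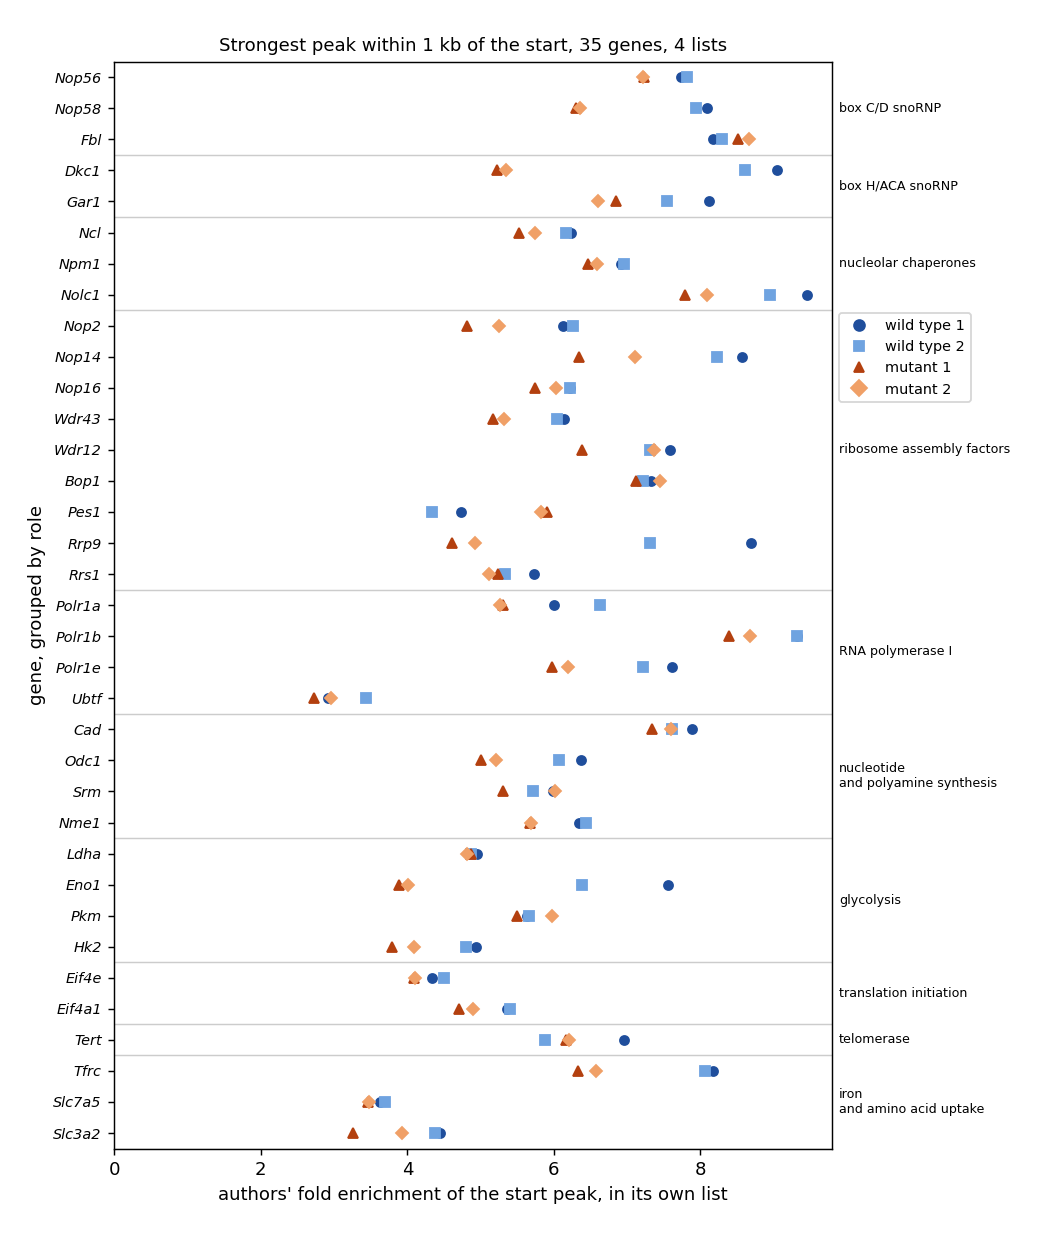
Fold enrichment of the start peak of each gene in its own list (authors' values, linear axis from 0), 1 symbol per library, genes grouped by role. The median fold of members was lower in both mutant lists, at 6.38, 6.39, 5.52 and 5.83. That of the 14624 genes with a start peak in all 4 lists was also lower in mutant, at 6.38, 6.14, 5.35 and 5.57. Pes1 is the clearest exception among members, with 4.73 and 4.34 in wild type and 5.91 and 5.83 in mutant.

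The box C/D ribonucleoproteins place methyl groups on ribosomal RNA, and Nop56, Nop58 and the methyltransferase fibrillarin (Fbl) are their core proteins. Their start peaks were among the stronger ones, with a median percentile of 75.5 over the 3 genes, the value of Nop56. Fbl (chr7:28168893-28179269, GRCm38) had a peak at each end. The stronger one, over the start of Dyrk1b, had fold 8.17, 8.29, 8.52 and 8.67 and ranked at 74.7, 79.6, 93.8 and 92.3, higher in both mutant lists. At the other end, from 28168511 to 28170512, fold was 6.85, 6.95, 4.71 and 5.05, lower in both mutant lists. That region held 2 peaks in each wild-type list and 1 in each mutant list, and how far this bears on the fold was not tested. No rank was taken there, and no single direction can be read for Fbl itself. Nop58 (chr1:59684961-59711510, plus strand), whose fold values were 8.09, 7.94, 6.31 and 6.35, ranked at 73.9, 75.5, 67.6 and 64.3, the other way round.

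All 3 genes had regions called in wild type alone, 7 of the 16 regions of both wild-type lists (43.75%, against 14.5% in all gene windows). This was the highest share of the 10 roles. Of the 7, only the Fbl region from 28161248 stood under equal numbers of peaks, a common minimum length and joining gap, and 50% cover. Nop58 had 12 regions, of which 3 were called in all 4 lists, and 11, 7, 4 and 5 peaks. Inside the gene, 107 bp from 59690614 to 59690720 had fold 3.37 and 3.18 in the wild-type lists and no peak in the mutant lists, where the nearest one was more than 4 kb away (4127 and 4142 bp). The others inside Nop58 ran from 59700442 to 59700886 (fold 2.41 and 2.23) and from 59701386 to 59701615 (2.47 and 2.33), next to a narrow region of all 4 lists. Fbl had 2 upstream or downstream of the gene, its strand being unknown here, from 28159342 to 28159508 (2.42 and 2.29) and from 28161248 to 28161389 (3.0004 and 2.76). Both of those lie over the neighbouring gene 9530053A07Rik.

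Nop56 (chr2:130274367-130279313, plus strand) had the like-width start peaks of 1131, 1083, 1186 and 1170 bp, with fold 7.73, 7.81, 7.24 and 7.22. Its covered length was 2841, 3057, 2404 and 2365 bp, longer in wild type. The extra length lay beyond its end, from 130279630 to 130280287 (658 bp, fold 1.69 and 1.64) over the neighbouring Idh3b, and from 130286323 to 130286430 (2.34 and 1.94). With only peaks of fold 4 or more, wild type minus mutant was -207 bp.

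The box H/ACA ribonucleoproteins turn uridine into pseudouridine, with dyskerin (Dkc1) as the enzyme and Gar1 as a partner. Dkc1 (chrX:75095854-75109776, plus strand) had 3 regions, none called in wild type alone. Its start peak had fold 9.04, 8.61, 5.23 and 5.35 and widths of 871, 1098, 1492 and 1482 bp. The wild-type lists ranked it at 83.7 and 82.7, the mutant lists at 47.4 and 46.0. Of the 14624 genes, at any peak width, 1.11% stood as far below their wild-type rank. The covered length of its window went the other way, at 933, 1179, 1556 and 1820 bp, so the mutant peak was lower in fold and broader. Fold is averaged over the peak, and how far the wider mutant peak bears on these ranks was not tested. The sex of the mice is not in the labels, and Dkc1 is the only member on the X chromosome.

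Gar1 (chr3:129824912-129831407, minus strand) also had 3 regions. Its start peak had fold 8.12, 7.54, 6.85 and 6.599 and overlapping ranks of 74.1, 70.9, 75.8 and 68.3. The region called in wild type alone ran from 129836131 to 129836282 (2.17 and 2.12), 4724 bp from the gene and 445 bp from the start of Cfi, the complement factor I gene. It was still called in wild type alone with equal numbers of peaks, common joining and 50% cover.

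The nucleolar chaperones nucleolin (Ncl), nucleophosmin (Npm1) and Nolc1, also called Nopp140, bind ribosomal RNA or assembly particles. Nolc1 (chr19:46075847-46085543, plus strand) had the highest start peak of this role, with fold 9.46, 8.96, 7.79 and 8.10. Its ranks of 86.97, 85.8, 87.6 and 87.3 differed little, and both mutant values were the higher ones. Ncl (chr1:86344719-86359455, minus strand) ranked lowest of the role, at 47.7, 50.4, 53.2 and 53.3, with fold 6.23, 6.17, 5.52 and 5.74.

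Ncl had 3 of the 4 regions of wild type alone in this role, all in its flanks. They ran from 86335641 to 86335871 (1.96 and 1.91), from 86338251 to 86338349 (1.74 and 1.89) and from 86368187 to 86368379 (2.20 and 2.01), the last over C130036L24Rik. The fourth lay 3002 bp beyond Nolc1, from 46088545 to 46088639 (2.29 and 2.71). Npm1 (chr11:33152498-33164142) had 3 regions and 3 peaks in each list, so nothing in its window was specific to a genotype. Its start peaks matched closely in width (1490, 1499, 1521 and 1499 bp), with fold 6.92, 6.97, 6.47 and 6.58 and ranks of 58.6, 63.3, 70.1 and 68.1.

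The 9 ribosome assembly factors had 4 regions of wild type alone among 41 of both wild-type lists (9.76%, against 14.5% in all gene windows). Nop2 (a methyltransferase of ribosomal RNA), Nop14, Nop16, Wdr12 and Bop1 had none. Pes1, Bop1 and Wdr12 form the complex that matures the large subunit, while Nop14, Wdr43 and Rrp9 act on the small subunit. Bop1 (chr15:76452988-76477249), read at the peak over the start of Hsf1, had the highest mean rank among those of like peak width in this role, with fold 7.32, 7.22, 7.13 and 7.45 and ranks of 64.3, 66.8, 79.7 and 80.1. Its covered length was 4468, 4282, 2907 and 2530 bp, which is longer in wild type by a wide margin, but among peaks of fold 4 or more wild type minus mutant was -196 bp.

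Pes1 (pescadillo, chr11:3963975-3980004, plus strand) had a higher start fold in both mutant lists, where the median fold of members and of all genes was lower. The other such member was Fbl, read at the peak over the start of Dyrk1b. By rank Pes1 was among the 19 members higher in both mutant lists (background 39.5%), against 10 higher in both wild-type lists (background 28.7%). Its start peak had fold 4.73 and 4.34 in the wild-type lists and 5.91 and 5.83 in the mutant lists, with −log10 q values of 32.2, 21.7, 65.1 and 53.2. Widths were alike at 1321, 1336, 1418 and 1387 bp, so the higher fold did not go with a narrower peak. The gene stood at percentiles 23.8 and 20.9 in wild type and 60.5 and 54.9 in mutant. A difference in mean percentile as large as this, 35.3 points higher in mutant, was seen at 31 of the 14624 genes (0.212%), Pes1 included. Among the 4147 genes of like width it was seen at 2, Pes1 and the zinc-finger gene Zfp960, whose mutant libraries stood far apart at 29.1 and 80.3. This promoter is shown above with its TATAAA and CACGCG.

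The Pes1 window as a whole, start peak included, went the other way. It held 7, 6, 3 and 4 peaks over 2905, 2612, 1805 and 2040 bp, longer in both wild-type lists. Of genes with a start peak in all 4 lists, 56.3% also had more peaks in both wild-type lists, and 28.7% longer cover. The region of wild type alone at Pes1, 122 bp from 3966435 to 3966556, lay inside the gene with fold 1.79 and 1.89. Of the 8 regions in the window, 3 were in all 4 lists. Pes1 was singled out after its values were seen, and its difference was not tested beyond the count of genes with one as large.

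**Figure D4:**
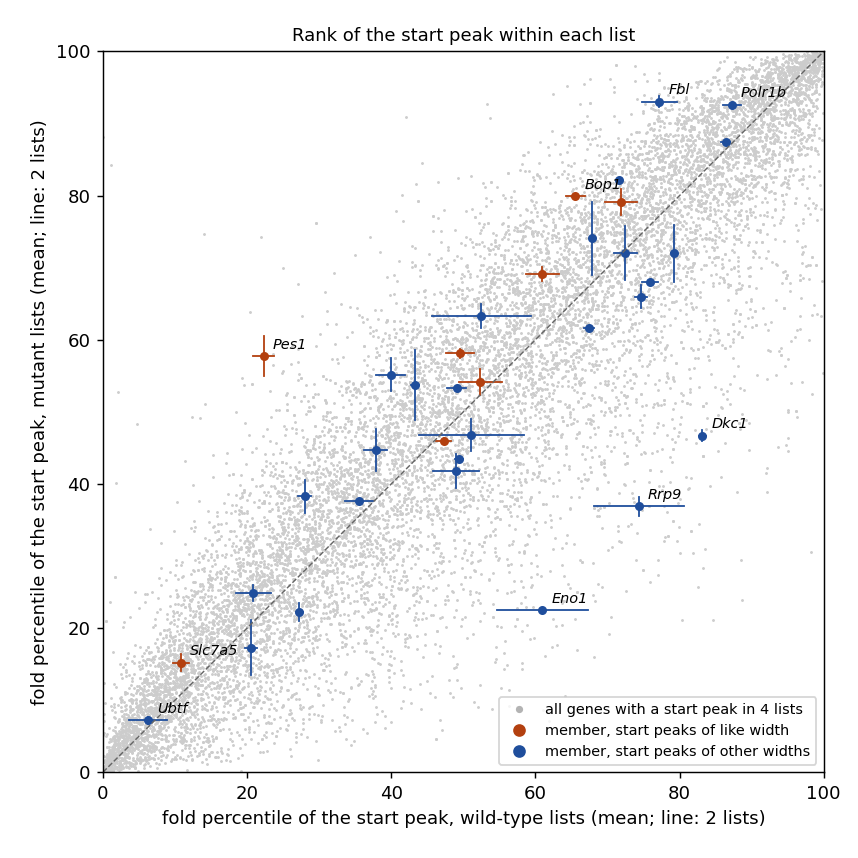
Percentile of the start peak's fold among 14624 genes, mean of the 2 wild-type lists (x axis) against mean of the 2 mutant lists (y axis), with lines that join the 2 lists of a genotype. Grey points are all genes, and the diagonal marks equal rank. The points of Fbl and Bop1 are peaks over the starts of Dyrk1b and Hsf1. Pes1 stands above the diagonal, at 22.3 against 57.7, while Dkc1, Rrp9 and Eno1 stand below it.

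Rrp9, which holds the U3 nucleolar RNA in its particle, had the opposite pattern (chr9:106477309-106485415, plus strand). Its start peak had fold 8.69, 7.32, 4.61 and 4.93, and ranks of 80.6, 68.1, 35.6 and 38.2. Here the widths differed as well, at 683, 803, 1712 and 1674 bp, with both mutant peaks far wider. The start region held 2 peaks in each wild-type list and 1 in each mutant list. A part of the region in wild type was therefore ranked against a peak averaged over a longer span in mutant. How far this bears on the ranks was not tested. Its start lies 360 bp from that of Parp3 on the other strand, and the peaks of both genes cannot be told apart. A narrow region upstream, from 106469938 to 106470036, had fold 1.84 and 1.69 in wild type alone, with a mutant peak 332 bp away.

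Of the other assembly factors, Nop14 (chr5:34638536-34660148, minus strand) had the highest mean rank of the role, at 79.5, 78.9, 68.1 and 75.9, with fold 8.57, 8.22, 6.34 and 7.11. Rrs1 (chr1:9545408-9547455), a regulator of large-subunit assembly, ranked at 39.4, 36.3, 47.7 and 41.7 with fold 5.73, 5.33, 5.24 and 5.12. The region of wild type alone near it, from 9548116 to 9548458 (1.56 and 1.45), overlapped the neighbouring Adhfe1, whose start is 168 bp away. Pes1 had the lowest mean rank of the role, 40.01. Nop16 had 3 regions and matched start peaks (fold 6.23, 6.22, 5.75 and 6.03).

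Wdr43 (chr17:71616178-71659031, plus strand) had 1 of the 3 strongest regions called in wild type alone. It ran from 71650135 to 71650249, 115 bp inside the gene and 33920 bp from the start, with fold 4.29 and 3.33. The nearest mutant peak was 7608 bp away, the longest distance among the 37. The start peak itself was alike in rank in all lists, at 46.2, 48.3, 46.3 and 45.5.

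RNA polymerase I transcribes the ribosomal RNA genes, with Polr1a and Polr1b as its large subunits, Polr1e as a further subunit and Ubtf as the factor that keeps those genes open. Polr1b (chr2:129100970-129128060, plus strand) had the highest mean rank of all 35 members, with percentiles of 86.0, 88.5, 92.9 and 92.4, with fold 9.32, 9.31, 8.39 and 8.68 and only 3 regions. Ubtf (chr11:102304560-102323649, minus strand) had the lowest, at 3.64, 8.92, 6.74 and 7.62. Its fold of 2.92, 3.44, 2.72 and 2.96 was averaged over peaks of 3239, 411, 3330 and 3328 bp, of which the second is a fragment that wild type 2 called apart. Polr1e had no region specific to a genotype and 6 of 7 regions in all 4 lists.

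Polr1a (chr6:71909053-71979435, plus strand) had 14 regions and 16, 12, 9 and 7 peaks. It held the strongest of the 37 regions of wild type alone, 233 bp from 71959342 to 71959574 inside the gene, 50289 bp from its start. This region had fold 6.75 and 4.40 in the wild-type lists, and the nearest mutant peak was 2663 bp away. It was the only one of the 37 that passed when peaks under fold 4 were left out. A neighbour from 71962237 to 71963277 was called in all lists, with fold 5.58, 5.73, 5.82 and 5.93.

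A further set of Polr1a regions separated mutant 2 from the other libraries. Fold was 4.81, 4.37 and 4.62 from 71918235 to 71919225, with no peak in mutant 2. It was 4.83, 3.96 and 3.01 from 71920530 to 71921115, and 7.50, 4.93 and 3.89 from 71968041 to 71968933, again with none in mutant 2. Covered length in this window therefore ran from 5464 bp in mutant 2 to 7919 bp in mutant 1, and wild type lay between, at 7121 and 5910 bp. The start is 291 bp from that of Ptcd3 on the opposite strand.

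Ubtf had 3 regions of wild type alone, all outside the gene. They ran from 102298117 to 102298224 (1.39 and 1.38, with a mutant peak 272 bp away), from 102302514 to 102302596 (2.32 and 2.17) and from 102325308 to 102325527 (2.19 and 2.01). Within the gene, a region from 102308839 to 102310322 had the higher fold in mutant, at 6.00, 5.70, 8.37 and 7.06. Mutant 1 split that region into 2 peaks, and the others called 1.

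**Figure D5:**
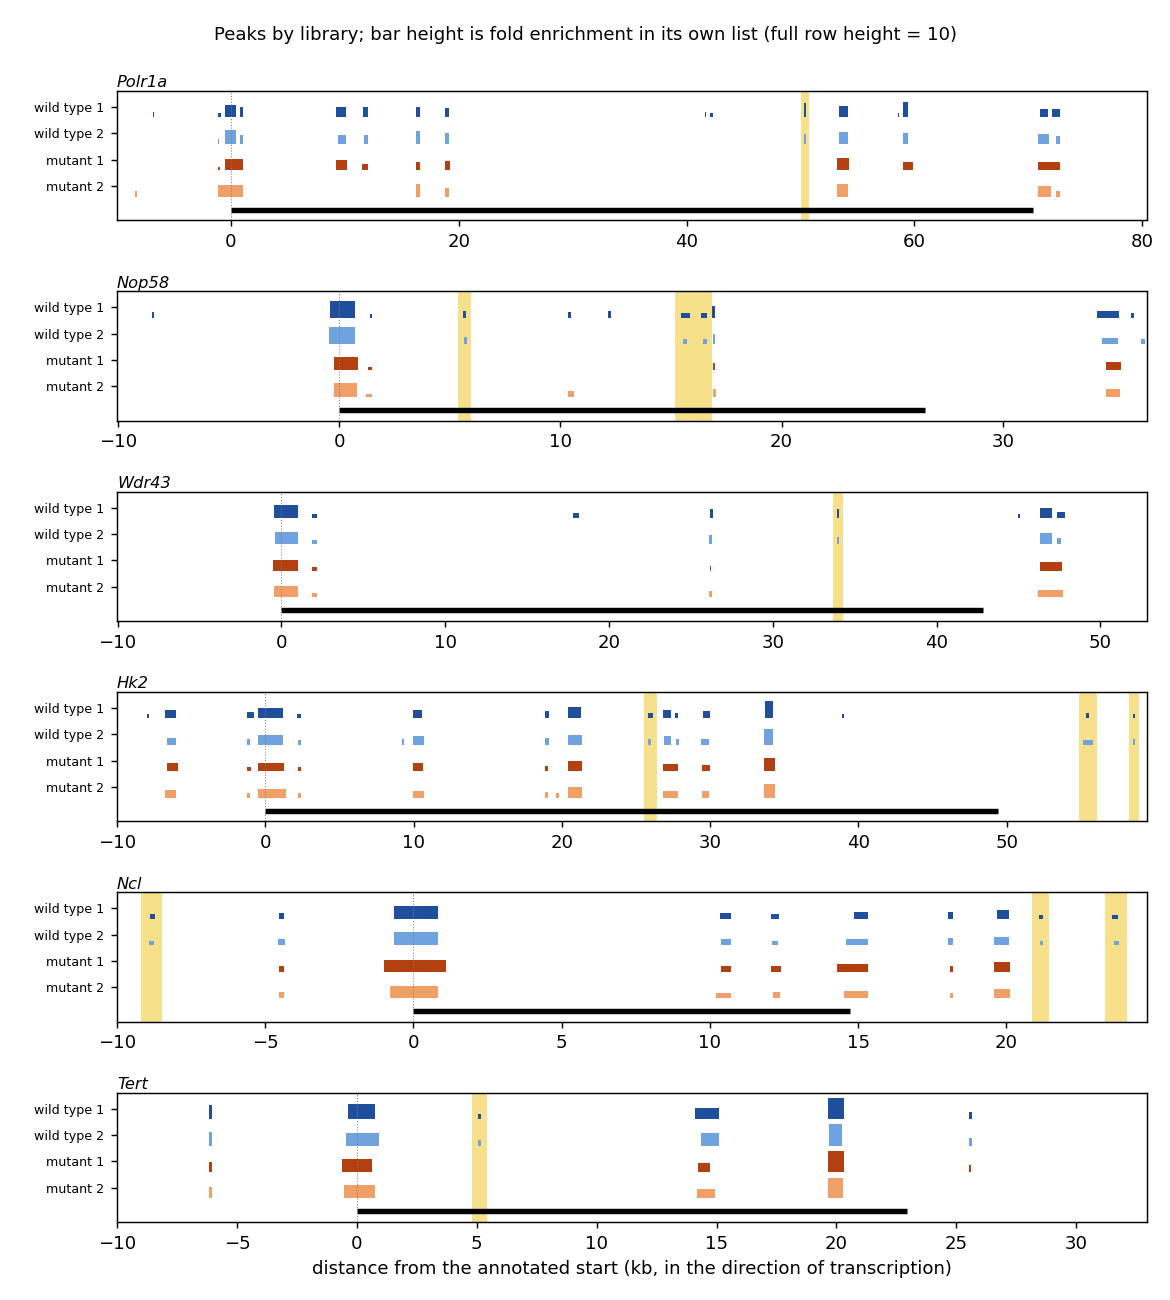
Peaks of each library along Polr1a, Nop58, Wdr43, Hk2, Ncl and Tert, as bars at their distance from the annotated start (kb, in the direction of transcription), with bar height giving fold enrichment in its own list. The black line is the gene, and shading marks regions called in both wild-type lists and no mutant list, such as the one 50289 bp into Polr1a with fold 6.75 and 4.40.

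Among the genes of nucleotide and polyamine synthesis, Cad makes pyrimidines, ornithine decarboxylase (Odc1) and spermidine synthase (Srm) make polyamines, and Nme1 is a nucleoside diphosphate kinase. Cad (chr5:31054620-31078479, plus strand) had 7 regions and 7 peaks in every list, all shared. It also ranked highest in this role, at 71.5, 71.7, 82.4 and 82.0, with fold 7.88, 7.61, 7.34 and 7.61. Odc1 (chr12:17544808-17551502, plus strand) had the lowest mean rank, with percentiles of 49.95, 48.9, 43.2 and 43.6, with fold 6.38, 6.07, 5.01 and 5.21. The region of wild type alone at Odc1, from 17551135 to 17551360 (1.66 and 1.80), stood at the far end of the gene, 319 bp from a mutant peak.

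Nme1 (chr11:93958925-93968272, minus strand), whose promoter carries the E-box shown above, had fold 6.34, 6.44, 5.67 and 5.69 at its start. Its ranks of 49.4, 55.3, 56.0 and 52.3 overlapped between the genotypes. The narrowest of the 37 regions, 80 bp from 93957242 to 93957321 (1.57 and 1.52), lay between Nme1 and its paralog Nme2, 986 bp from the start of Nme2. That width is below the shortest peak of mutant 2, 87 bp. Srm (chr4:148591513-148594619) had 3 regions and a start peak that was wider in wild type (1594, 1822, 1548 and 1542 bp).

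The 4 glycolytic genes had start peaks of lower rank, with a median of 37.4. Hexokinase 2 (Hk2, chr6:82725025-82774454, minus strand), the first enzyme of glycolysis, had 17 regions, the most of all members, and 10 of them in all 4 lists. Its start fold was 4.93, 4.80, 3.78 and 4.09, and the ranks of 26.8, 27.7, 20.9 and 23.5 had the lowest mean of the role. A stronger region lay inside the gene, from 82740067 to 82740807, with fold 8.48, 7.36, 6.27 and 6.63. Its 3 regions of wild type alone ran from 82715818 to 82715941 (2.25 and 2.70), from 82718640 to 82719310 (2.58 and 2.26) and, inside the gene, from 82748294 to 82748666 (2.45 and 2.55).

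Enolase 1 (Eno1, chr4:150236708-150248879, plus strand) had 8 of its 9 regions in all 4 lists and none of wild type alone. Its start peak had the largest difference in rank among the members, from 67.3 and 54.6 to 22.7 and 22.4, with fold 7.56, 6.39, 3.89 and 4.01. The peak was again wider in mutant, at 841, 1011, 2031 and 2020 bp, and 0.909% of the 14624 genes stood as far below their wild-type rank. As at Rrp9, the start region held 2 peaks in each wild-type list and 1 in each mutant list. How far this bears on the ranks was not tested. Within Eno1 a region from 150247929 to 150248432 was the second strongest of those away from starts, by the lowest fold of the 4 lists, with fold 10.4, 7.43, 7.22 and 7.72.

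Lactate dehydrogenase A (Ldha, chr7:46842274-46855627, plus strand) had matched start peaks over its pair of E-boxes, with fold 4.95, 4.87, 4.87 and 4.81. The fold of all genes had a lower median in the mutant lists, so these near-equal values ranked higher there, at 27.1, 28.9, 40.6 and 36.0. Ldha had 11 regions, 5 in all lists, and 1 of wild type alone from 46859072 to 46859328 (2.22 and 2.31), 1935 bp from the start of its paralog Ldhc. Pyruvate kinase (Pkm, chr9:59656576-59679372, plus strand) ranked highest among start peaks of the role in the mutant lists, at 52.8 and 57.5, after 37.9 and 41.9 in wild type, with fold 5.64, 5.66, 5.49 and 5.97. Its region of wild type alone, from 59653509 to 59653614 (1.59 and 1.78), stood 2962 bp upstream, and 8 of its 9 regions were in all lists.

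The translation initiation genes code for the cap-binding protein eIF4E and the helicase eIF4A. Eif4e (chr3:138526191-138559696, plus strand) had no region specific to a genotype, start folds of 4.34, 4.51, 4.08 and 4.11, and ranks of 18.4, 23.3, 26.0 and 23.7. Eif4a1 (chr11:69666936-69672423, minus strand) ranked at 33.5, 37.5, 37.5 and 37.8, with fold 5.35, 5.40, 4.71 and 4.90. Of its 2 regions of wild type alone, 1 covered the neighbouring macrophage gene Cd68, from 69665922 to 69666416 (2.01 and 1.74), and the other lay over Senp3, from 69676439 to 69676616 (1.51 and 1.45). The myeloid marker genes also had more start peaks in the wild-type lists (4 and 4 of 5, against 2 and 2), and their part in the Cd68 region was not tested.

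Tert, the catalytic protein of telomerase (chr13:73626911-73649843, plus strand), held the strongest region away from a start, by the lowest fold of the 4 lists. It ran from 73646562 to 73647232, 19651 bp into the gene, with fold 10.2, 10.2, 9.81 and 9.60 in 4 of 4 lists. The start peak was weaker, at 6.96, 5.88, 6.16 and 6.20, and its ranks of 59.3, 45.6, 65.0 and 61.6 put the mutant lists above both wild-type lists. The region of wild type alone inside Tert was 99 bp, from 73631972 to 73632070 (2.35 and 2.75).

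The uptake genes code for the transferrin receptor (Tfrc) and the 2 chains of a large amino acid transporter, the light chain Slc7a5 and the heavy chain Slc3a2. Tfrc (chr16:32608896-32632794, plus strand) had the strongest start of them, with fold 8.17, 8.06, 6.34 and 6.58 and ranks of 74.8, 77.0, 68.0 and 68.0. Slc7a5 (chr8:121881146-121907686) had the lowest mean rank, with fold 3.62, 3.69, 3.47 and 3.48 and ranks of 9.79, 11.9, 16.3 and 14.1, over peaks of 2132, 2117, 2290 and 2188 bp. Slc3a2 (chr19:8706882-8723369, minus strand) had fold 4.44, 4.38, 3.26 and 3.93 at the start that the promoter table gives. A stronger region covered its outer annotated end, from 8722628 to 8724075, with 7.54, 7.53, 5.71 and 5.73.

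Together these 3 genes had 7 regions of wild type alone among 25 of both wild-type lists (28%, against 14.5% in all gene windows). Slc7a5 had 4, the most of any member: from 121897296 to 121897602 (1.57 and 1.65) and from 121900606 to 121900759 (1.60 and 1.54) inside the gene, and from 121911308 to 121911707 (1.62 and 1.59) and from 121913496 to 121913718 (2.15 and 2.42) over the neighbouring BC048644. Its 16 regions gave 15, 11, 8 and 7 peaks. In Tfrc they lay beyond the end, from 32634092 to 32634429 (1.88 and 2.40) and from 32642463 to 32642684 (1.92 and 1.68). At Slc3a2 the region ran from 8705066 to 8705899 (834 bp, the widest of the 37, 2.21 and 2.81), with a peak of mutant 1 at a distance of 428 bp.

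Several members share their opening with a neighbour. Starts of another gene on the opposite strand lay within 1 kb for Nop14, Nop16, Polr1a, Rrp9 and Wdr12, 5 of 29 genes (17.2%), against 9.99% of all genes with a known start. The closest were Wdr12 and Carf, 113 bp apart. A different feature of several members is that they host small nucleolar RNA genes, which are cut out of their introns. The 7 hosts Nop56, Nop58, Dkc1, Ncl, Wdr43, Odc1 and Eif4a1 held 19 such genes, and 0 of them had a peak in any list, against 13.7% of 461 small nucleolar RNA genes inside protein-coding genes. Their positions are given by the annotation, and no reads of the RNAs themselves were measured.

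The same readouts were taken for 80 further genes of these pathways. A start peak was called in all 4 lists for 80 of 80. Of the 419 regions of both wild-type lists at these genes, 72 (17.2%) were called in wild type alone, against 18.4% for the 35 members, and 4 of 329 (1.22%) in mutant alone. Their covered length was longer in wild type at 20 genes and longer in mutant at 32. The shares over all genes with a start peak in all 4 lists were 28.7% and 32.4%. The 34 further ribosome biogenesis genes had a median start rank of 69.3, and the 11 further glycolysis and transport genes 24.1, the same order as in the members. In RNA polymerase I genes beyond the members (10 genes) the median was 79.7.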

How the data were processed

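Chromatin was profiled by ATAC-seq in 4 DN3 libraries, 2 per genotype, and the 4 leukaemia samples of the 8 in the series were not analysed here. The submitters' processing notes list build mm10 (GRCm38) and the tools MACS2 2.1.1, SAMtools 1.7, Bowtie2 2.3.3.1 and cutadapt 1.16. How reads were filtered, or shifted for the cut made by the transposase, is not given in the sources used here. The authors called broad peaks per library. In the deposited lists each peak has a score, a fold enrichment (a ratio of pileup to local background) and −log10 p and −log10 q values, with a lowest −log10 q of 1.00 to 1.02. These values are the authors' own and describe peaks within a list. No read counts are in the lists, so accessibility levels have no count test and no interval.

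Peaks off the autosomes, X and Y (0.112% to 0.131% of each list) were set aside. Overlapping peaks of the 4 lists were merged into regions, and a library had a region if a peak overlapped it by 1 bp or more. Gene positions, starts and promoters came from RefSeq tables (GRCm38.p6). All 35 members were matched by symbol, exons and introns were not annotated, and starts were known for 29 genes. Libraries were compared by exact two-sided permutation tests (2 against 2), shares by counts and by the same share over all genes or regions, and share intervals are Clopper-Pearson at 95%. A count of 0 is given with the share that 3 counts would make.

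The members and gene lists were chosen with earlier results of these data known. Genes named with values in every library were those with a region called in 1 genotype only, the highest and the lowest start rank of each role, and those with the most or fewest regions. Dkc1, Rrp9, Eno1 and Pes1 were discussed for their ranks after their values were seen. Alternatives were a −log10 q of at least 5, a fold of at least 4, equal numbers of peaks (119023), a common minimum length (87 bp) and joining gap (348 bp), gene bodies alone, flanks of 50 kb, other start distances, 50% cover, a replicate block and leaving out each library. The code was tested on simulated lists with known missing regions. Python 3.11.15, numpy 2.4.6, pandas 2.3.3, scipy 1.17.1 and matplotlib 3.10.9 were used.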

Additional observations from a re-analysis of the deposited data

How the results depend on the processing

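The excess of peaks in the wild-type lists kept its direction in all settings run, and the start count was 30 of 35 with peaks of fold 4 or more, 34 within 500 bp, and 35 elsewhere. The covered-length difference (wild type minus mutant) turned to -1971 bp in gene bodies alone, -2019.5 bp at −log10 q of 5 or more and -4577 bp for lists trimmed to equal numbers of peaks. Of regions in both wild-type lists, the share missing from both mutant lists was 11% in gene bodies, 8.11% at −log10 q of 5 or more and 6.63% for lists of equal length, and the share called only in mutant was 2.67% at fold 4 or more. Genes with longer cover in wild type numbered 7 with equal numbers of peaks and 5 in gene bodies. Those with longer cover in mutant numbered 14 at fold 4 or more, 15 with equal numbers of peaks, 15 in gene bodies and 5 with flanks of 50 kb. Shares over all genes or regions were not computed under these settings. Whether these shifts are particular to the members was not tested. Single genes turned as well, with the difference as wild type minus mutant. Nop56 gave -62.5 bp at −log10 q of 5, -207 bp at fold 4 and -107 bp with equal numbers. Hk2 gave -324 bp with equal numbers and -284.5 bp in its gene body, and Eif4a1 -326 bp at fold 4 and -120.5 bp in its gene body. Gar1 gave -115 bp in its gene body, Bop1 -196 bp and Slc7a5 -646.5 bp at fold 4. Npm1 gave 1866.5 bp at fold 4 and 726.5 bp with flanks of 50 kb, where Cad gave 738 bp. The cause was not tested.

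Leaving out 1 library at a time gave a peak difference of 59.5 to 79.5, a cover difference of 38.5 to 8270.5 bp, shares of 20.3 to 28.1% for wild type alone and 0 to 2.41% for mutant alone, 12 to 19 genes longer in wild type, 10 to 17 longer in mutant, and 35 to 35 genes with a start peak in every list. The labels do not tie equal replicate numbers to shared animals. With the replicate number as a replicate block (2 pairs) the differences were the same, 69.5 peaks and 4154.5 bp, each with an exact p of 0.5, the smallest that 2 pairs allow. Depth was unknown, so weak regions limit every count of regions called in 1 genotype.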
